A study of Mus musculus with 10 samples.

Results

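The EGF family was followed in single cells as 10 genes of the 23197 listed, namely the ligands *Ereg*, *Areg*, *Hbegf*, *Tgfa*, *Epgn*, *Btc* and *Nrg1* and the receptors *Egfr*, *Erbb2* and *Erbb3*. The genes were chosen by name as a family, with their measured levels over the time points in view, so those levels and the differences between time points are a description without a test. All 10 genes were in the count table, and all were detected, although *Erbb3* was covered by 3 UMIs in 1 cell. A UMI is a tag that marks 1 captured RNA molecule.

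Mouse embryonic fibroblasts (MEFs) of the ICR strain were turned into cells like extraembryonic endoderm (XEN) by the C6FAE cocktail of CHIR99021, the TGF-beta receptor inhibitor abbreviated 6, Forskolin, AM580 and EPZ004777, in a medium that also held serum, serum replacement and basic fibroblast growth factor. The medium recipe in the study's methods names valproic acid too, which the sample label C6FAE does not. Single cells were picked by hand on days 0, 1, 2, 3, 4, 5, 6, 8, 12 and 20, and the groups are called d0 to d20 here, with d6p for day 6. The d0 group is MEFs, and every later group is of MEFs put under the cocktail, with cells of d8c and d12c taken from colonies of day 8 and day 12. Cell names carry a time point with a number but not which of the 10 sequenced batches a cell came from, and all cells were therefore treated as 1 sample. Time and batch cannot be told apart, and the spread given is between cells.

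Of 808 cells, the 670 with at least 4000 detected genes were kept, between 20 (d8c) and 86 (d6p) per group. Median depth was lowest at d20 (195480 UMIs) and highest at d2 (1055206 UMIs). Levels are CPM, the UMIs of a gene scaled to one common total of UMIs per cell, without spike-in RNAs, and differences are between means over cells of log2(CPM + 1). The spike-in share of the counts went from 3.04% at d0 to 11.4% at d12 and 18.0% at d20, so that equal CPM stood for fewer UMIs per spike-in UMI at the late time points.

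Ligands of the EGF family are made as membrane proteins and are mostly released from the cell surface by metalloproteases. *Egfr* encodes the receptor of amphiregulin (*Areg*), TGF-alpha (*Tgfa*) and epigen (*Epgn*), and epiregulin (*Ereg*), HB-EGF (*Hbegf*) and betacellulin (*Btc*) bind the receptor of *Erbb4* as well. Neuregulin 1 (*Nrg1*) binds the receptors of *Erbb3* and *Erbb4*, and the product of *Erbb2* has no known ligand and acts as a partner of the others. Bound receptors pair and signal through Ras and ERK and through PI3 kinase, which in turn raises genes that damp the receptor.

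The genes *Epgn*, *Ereg*, *Areg* and *Btc* are neighbours. On NCBIM37 (mm9), the build of the authors' alignment, *Epgn* lies at chr5:91456490-91464241, *Ereg* at chr5:91503643-91522675 and *Areg* at chr5:91568641-91577458, all on the plus strand, and *Btc* at chr5:91786287-91831939 on the minus strand. The GENCODE M1 annotation places no other protein-coding gene in the gaps of 39.4, 46.0 and 209 kb between them. RefSeq promoter sequences (GRCm38.p6, 250 bases before to 50 after the gene start) were matched for 6 of the 10 members (*Epgn*, *Areg*, *Btc*, *Tgfa*, *Egfr* and *Erbb2*). Those of the 3 matched members of the chromosome 5 group are shown because these neighbours were all higher at d12 than at d8 and because Forskolin raises cAMP. The share of all genes higher at d12 than at d8 was not taken. Forskolin is in the cocktail of every group after d0, and its part in these levels was not tested. Capitals mark the cAMP response element TGACGTCA and its core TGACG on either strand, so that CGTCA is the core on the opposite strand.
Epgn: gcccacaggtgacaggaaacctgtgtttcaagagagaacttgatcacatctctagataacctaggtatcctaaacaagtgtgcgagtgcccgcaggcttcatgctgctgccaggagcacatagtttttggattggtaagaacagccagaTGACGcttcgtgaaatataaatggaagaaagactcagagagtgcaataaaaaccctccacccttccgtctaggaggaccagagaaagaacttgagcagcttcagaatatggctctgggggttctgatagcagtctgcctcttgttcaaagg
Areg: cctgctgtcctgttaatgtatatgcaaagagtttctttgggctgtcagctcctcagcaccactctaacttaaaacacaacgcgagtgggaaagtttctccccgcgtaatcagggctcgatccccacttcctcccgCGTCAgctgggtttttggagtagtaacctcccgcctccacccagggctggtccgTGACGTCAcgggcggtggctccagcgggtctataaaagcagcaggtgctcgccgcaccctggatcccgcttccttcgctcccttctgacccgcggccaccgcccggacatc
Btc: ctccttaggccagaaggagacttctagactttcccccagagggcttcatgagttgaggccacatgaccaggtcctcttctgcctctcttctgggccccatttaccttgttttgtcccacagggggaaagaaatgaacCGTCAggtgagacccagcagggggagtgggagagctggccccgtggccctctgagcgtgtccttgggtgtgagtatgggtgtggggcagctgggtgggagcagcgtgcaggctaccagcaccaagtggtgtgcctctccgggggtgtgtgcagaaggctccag
The *Areg* promoter lies at chr5:91139349-91139648 on the plus strand and holds the full element from position -61, counted from the gene start. The 8-letter element was found in 588 of 32851 promoters (1.79%). The 5-letter core, which the full element contains on both strands, was found in 20.8% of these promoters. It was found in 4 of the 6 matched members, namely *Epgn* (chr5:91027267-91027566, plus strand, position -101), *Areg*, *Btc* (chr5:91402945-91403244, minus strand, position -113) and *Erbb2* (position -171). These matches are letters in a window, and binding was not measured.

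*Ereg*, which encodes epiregulin, had a mean of 15.9 CPM in the 72 d0 cells, 52.3 at d1, 32.2 at d2, 13.4 at d3 and 7.13 at d4. The mean was 2.98 CPM at d5, 4.61 at d6p, 1.62 at d8 and 0.854 at d8c. At d12 it was 1223 CPM, with 189 CPM in the d12c cells and 0.190 CPM in those of d20. The mean was thus higher on day 1 than at d0, close to 0 by day 8 and far above all earlier means at d12, where it was 76.9-fold that of d0. The d12 cells ran from 28.0 to 5720 CPM with a median of 834, and their lower quartile of 129 CPM lay above the upper quartile of every other group (73.3 CPM at d12c and 61.6 at d1 were the next). Summed over the 67 cells, d12 held 66755 *Ereg* UMIs, or 1180 CPM of the pooled UMIs with an exact Poisson interval of 1171 to 1189. At d20, 3 UMIs were found in 2 of 38 cells.

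*Areg*, which encodes amphiregulin, followed a like course with a steeper first step. Its mean was 4.06 CPM at d0, 145 at d1, 57.3 at d2, 6.46 at d3, 17.5 at d4 and 8.01 at d5. It was 8.88 CPM at d6p, 0.942 at d8, 0 in all 20 cells of d8c (which allows up to 15.0% of cells with a UMI), 959 at d12 and 252 at d12c. The d1 mean was 35.8-fold and the d12 mean 236-fold that of d0. Cells differed widely, from 0 to 1142 CPM at d1 and from 13.2 to 11303 CPM at d12, and the quartiles of d1 (2.18 and 156 CPM) and d12 (49.1 and 874) overlapped. The d20 mean of 11.7 CPM came from 2 cells, of which 1 held 91.2% of the sum, and it was 1.06 CPM without that cell.

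*Hbegf*, which encodes heparin-binding EGF-like growth factor, started high and was lost in the middle of the course. Its mean was 134 CPM at d0, 93.9 at d1, 43.8 at d2, 8.01 at d3, 13.1 at d4 and 2.68 at d5. It was 3.902 CPM at d6p, 1.64 at d8 and 14.9 at d8c. In the d12 cells it was 250 CPM, in those of d12c 69.2 CPM and in those of d20 33.4 CPM. At d6p 1 cell held 76.4% of the sum and the mean without it was 0.930 CPM, and at d8c 1 cell held 58.2% and the mean without it was 6.57 CPM. A UMI was found in 60 of 72 cells at d0, in 16 of 86 at d6p, in all 67 at d12 and in 15 of 38 at d20. With each cell thinned to 50000 UMIs the shares were 66.2% of 71 cells at d0, 8.64% of 81 at d6p, 77.3% of 66 at d12 and 30.6% of 36 at d20. The d12 quartiles (13.5 and 287 CPM) overlapped those of d0 (3.53 and 190). *Hbegf* was the member with the most UMIs at d20, 291 in all.

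*Nrg1*, which encodes neuregulin 1, had its highest mean at d12, as *Ereg* and *Areg* did, and had the highest mean of the 7 ligands at d5 and d8. Its mean lay between 4.04 and 22.6 CPM from d0 to d8, was 0.298 at d8c and 57.3 at d12, and stood at 15.3 CPM in d12c and 1.24 CPM in d20 cells. The second highest mean, 22.6 CPM at d5, rested on few cells, since the 5 highest of 36 held 80.5% of the sum and the median was 0.376 CPM. At d12 the median was 19.2 CPM with quartiles of 4.21 and 86.7, and 64 of 67 cells held a UMI (68.2% after thinning to 50000 UMIs). The upper quartiles of the other groups lay at or below 32.0 CPM, and those of d4, d6p, d8, d8c and d20 lay below the lower quartile of d12.

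*Epgn* was rare outside day 12, and *Btc* was about as common at d1 as at d12. *Epgn*, which encodes epigen, had a mean of at most 0.564 CPM in the groups from d0 to d8c and 16.7 CPM in d12 cells. It was 6.32 CPM in d12c cells, and no UMI was found at d20 (which allows up to 7.89% of cells). A UMI was found in 33 of 67 d12 cells, and the 5 highest cells held 75.1% of the d12 sum. *Btc*, which encodes betacellulin, had a mean of 0.106 CPM at d0, 8.38 at d1, 4.27 at d2, 3.53 at d6p and 10.8 at d12, and at most 0.659 at d3, d4, d5, d8, d8c and d20. It was detected in 3 of 72 cells at d0, 12 of 40 at d1 and 26 of 67 at d12. After thinning to 50000 UMIs it was found in 1 of 71, 8 of 40 and 10 of 66 cells, and *Epgn* in 10 of 66 d12 cells. At d12c 1 cell held nearly all of the *Epgn* sum and 1 cell 95.9% of the *Btc* sum (mean 2.45 CPM), and the means without these cells were 0.258 and 0.102 CPM.

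*Tgfa*, which encodes TGF-alpha, did not share the day 1 step. Its mean was 2.69 CPM at d0, at most 0.626 from d1 to d6p, and 0 at d8 and d8c. It was 4.37 CPM in d12 cells, 4.43 CPM in d12c cells and 10.7 CPM in d20 cells. The highest mean, at d20, came from 3 of 38 cells, and it was 2.93 CPM without 1 cell that held 73.2% of the sum. A UMI was found in 28 of 67 cells at d12 and in 16 of 51 at d12c, or in 15.2% and 17.0% after thinning to 50000 UMIs.

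Among the receptors, *Egfr* was detected at a nearly level mean in the first 8 days and had its highest mean at d12. Its mean was 11.0 CPM at d0, lay between 11.9 and 17.6 from d1 to d8c and was 41.0 at d12, against 4.84 CPM in d12c cells and 0.105 CPM in d20 cells. A UMI was found in 35 of 72 cells at d0, 34 of 62 at d8, 60 of 67 at d12, 13 of 51 at d12c and 1 of 38 at d20. Since deeper cells show a UMI more often, each cell was also thinned to 50000 UMIs, and *Egfr* was then found in 29.6% of 71 cells at d0, 15.3% of 59 at d8, 42.4% of 66 at d12, 12.8% of 47 at d12c and none of 36 at d20. The higher share of d12 and the lower share of d20 against d0 were thus seen at matched depth as well. The share at d2 was above that of d12, at 47.6% of 82 thinned cells. The median CPM was also higher at d2 (10.4) than at d12 (6.80). The upper quartile (22.5 CPM at d2, 55.0 at d12) and the mean of log2(CPM + 1) (2.78 and 3.64) were higher at d12. The d12 peak was thus seen in the mean and the upper quartile, but not in the median or the thinned share. Over the first 8 days the thinned share was less level than the mean. The d12 quartiles (2.19 and 55.0 CPM) overlapped those of d0 (0 and 16.9). All *Egfr* signal of d20 was 1 UMI.

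*Erbb2* had a low level without a peak at d12. Its mean was 10.9 CPM at d0, 1.75 at d1, 1.09 at d6p, 6.13 at d8 and 5.20 at d12. It was 4.94 CPM in d12c cells and 12.4 CPM in d20 cells. The d20 mean was 7.50 CPM without 1 cell, below d0. *Erbb3* was found as 3 UMIs in 1 d12c cell and in none of the other kept cells. Of the other family genes, *Erbb4*, *Egf*, *Nrg2*, *Nrg3* and *Nrg4* had a mean log2(CPM + 1) of at most 0.26 at d0, d1, d5, d12 and d20. A receptor of *Nrg1* was thus covered by few or no UMIs in these cells at this depth.

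**Figure D1:**
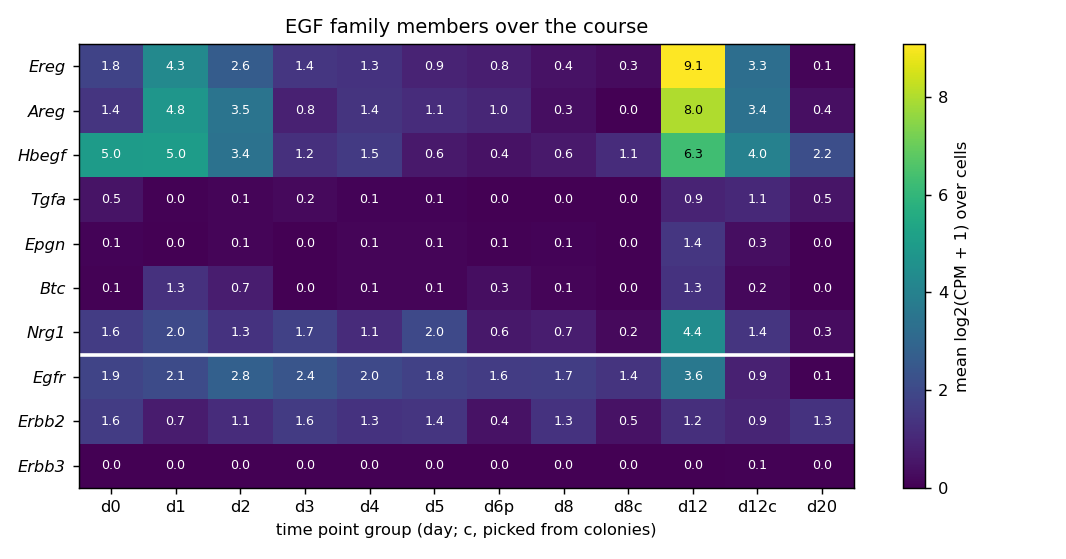
Mean log2(CPM + 1) over kept cells for the 10 genes (rows, ligands above the white line and receptors below) in the 12 time point groups (columns), with the value printed in each field. The highest fields are Ereg and Areg at d12, and both are near 0 at d8, d8c and d20.

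**Figure D2:**
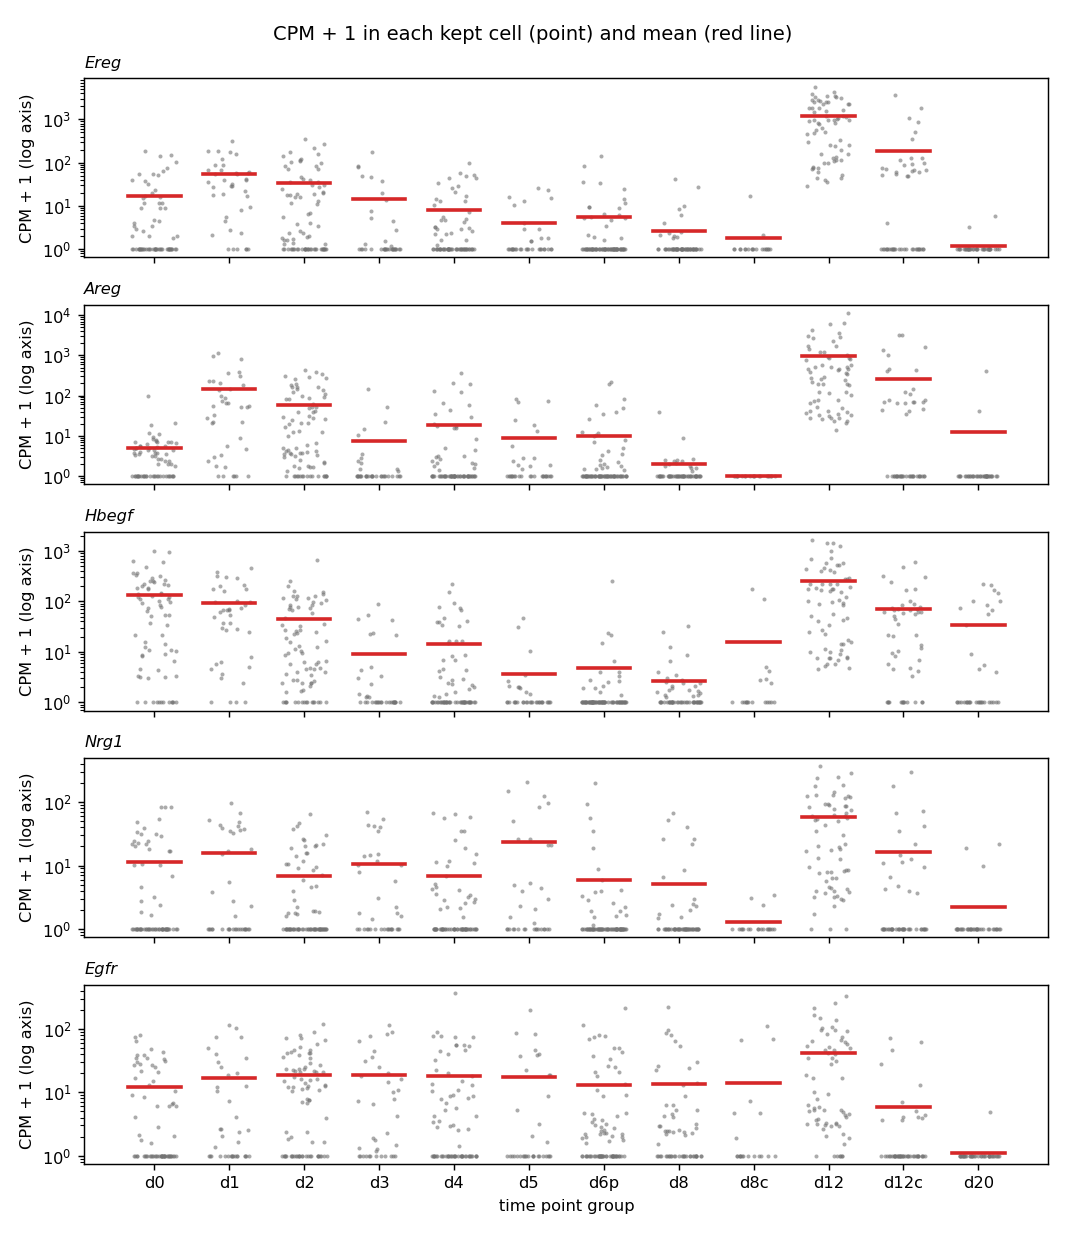
CPM + 1 on a log axis for Ereg, Areg, Hbegf, Nrg1 and Egfr in each kept cell (grey points) by time point group, with the mean as a red line. No d12 cell lies at 0 for Ereg, Areg or Hbegf, whereas cells of d20 lie almost all at 0 for Ereg, Areg and Egfr.

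Ligands were next counted per cell. The CPM of the 7 ligands were added in each cell, and this sum had a median of 96.04 at d0, 195 at d1, 80.5 at d2, 17.1 at d3 and 1.33 at d8. At d12 the median sum was 1578 CPM and the lowest cell held 100.05 CPM, while at d20 the median was 1.48 CPM with a highest cell of 511. Counting ligands at 20 CPM or more, 56 of 67 d12 cells (83.6%) held 3 or more, against 21 of 40 at d1 (52.5%), 17 of 83 at d2 and 4 of 72 at d0. No cell of d4, d5, d6p, d8, d8c or d20 held 3 or more ligands at that level. At d8, 51 of 62 cells held none. This limit lies below the lowest *Ereg* level of any d12 cell (28.0 CPM), and 65 of 67 d12 cells passed it for *Areg*, so that *Ereg* and *Areg* counted in nearly every d12 cell. At 100 CPM or more, a limit chosen after the values were seen, 26 of 67 d12 cells (38.8%) held 3 or more ligands, against 2 of 40 at d1, 1 of 83 at d2, 5 of 51 at d12c and none in the other groups, and 6 d12 cells held none.

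The early step was measured as d1 minus d0. Of the 10 members, 7 reached 1 as the mean of log2(CPM + 1) in d0 or d1, 3 were higher by over 1 and none was lower. Over all genes that passed this minimum, 19.3% of 9441 were higher and 4.57% lower. *Areg* differed by 3.37 (the 10th highest of the genes tested), *Ereg* by 2.46 and *Btc* by 1.24. The median over all 10 members, those below the minimum included, was 0.13 against 0.43 over the genes that passed it. Of the 7 members that passed, the middle value was 0.40 (*Nrg1*). Member medians of the comparisons below also cover all 10, with *Erbb3* at 0, and are not on a like set with those of all genes tested. *Hbegf*, with a high level already at d0, differed by 0.05.

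At d5 *Areg* differed from d0 by -0.27 and *Ereg* by -0.93 on this scale. In d5 minus d0, 6 members passed the minimum, none was higher and 1 was lower, against 29.1% higher and 6.38% lower of 9898 genes. *Hbegf* was the lower one, with a difference of -4.35 that was the 17th lowest of all genes tested. The median of all 10 members was -0.16 and that of all genes tested 0.52.

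For d12 minus d0, 8 members passed the minimum, 7 were higher by over 1 and none was lower, where 19.8% of 9611 genes were higher and 16.3% lower. The differences were 7.26 for *Ereg* (the 4th highest of the genes tested), 6.61 for *Areg* (the 8th), 2.81 for *Nrg1*, 1.77 for *Egfr*, 1.37 for *Epgn*, 1.31 for *Hbegf* and 1.24 for *Btc*. The median of all 10 members was 1.34 against -0.01 over all genes tested. Per spike-in UMI the median of all genes shifted by -1.23, the count of higher members was 3, and *Hbegf* was lower by 0.56 on the log2 scale, so its direction depended on the scale. With a pseudocount of 10 in place of 1 the count was also 3. The share of all genes past the limit was not taken under these settings.

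For d20 minus d0, 6 members passed the minimum, none was higher and 5 were lower, against 15.0% higher and 25.1% lower of 9352 genes. The lower ones were *Hbegf* (-2.79), *Egfr* (-1.81), *Ereg* (-1.71), *Nrg1* (-1.30) and *Areg* (-1.04). The median of all 10 members was -0.67 against -0.20 over all genes tested. *Areg* turned to 1.33 when the log2 was taken of the mean CPM + 1, and 1 d20 cell holds most of that mean. With a pseudocount of 10 the count of lower members was 1, *Hbegf* (-1.52), and after thinning to 50000 UMIs it was 3. Under both ways of averaging before the log2, 2 members were higher. Shares of all genes were not taken under these settings.

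For d20 minus d12, 8 members passed the minimum, none was higher and 7 were lower, against 20.5% higher and 30.9% lower of 9749 genes. *Ereg* differed by -8.97 and *Areg* by -7.65, the 14th and 31st lowest of all genes tested. *Nrg1* followed with -4.11, *Hbegf* with -4.10 and *Egfr* with -3.58. The median of all 10 members was -2.52 against -0.20 over all genes tested. The comparisons share the d0, d12 and d20 cells and are not independent. Differences between groups of cells do not separate a change within cells from a change in which cells were picked.

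**Figure D3:**
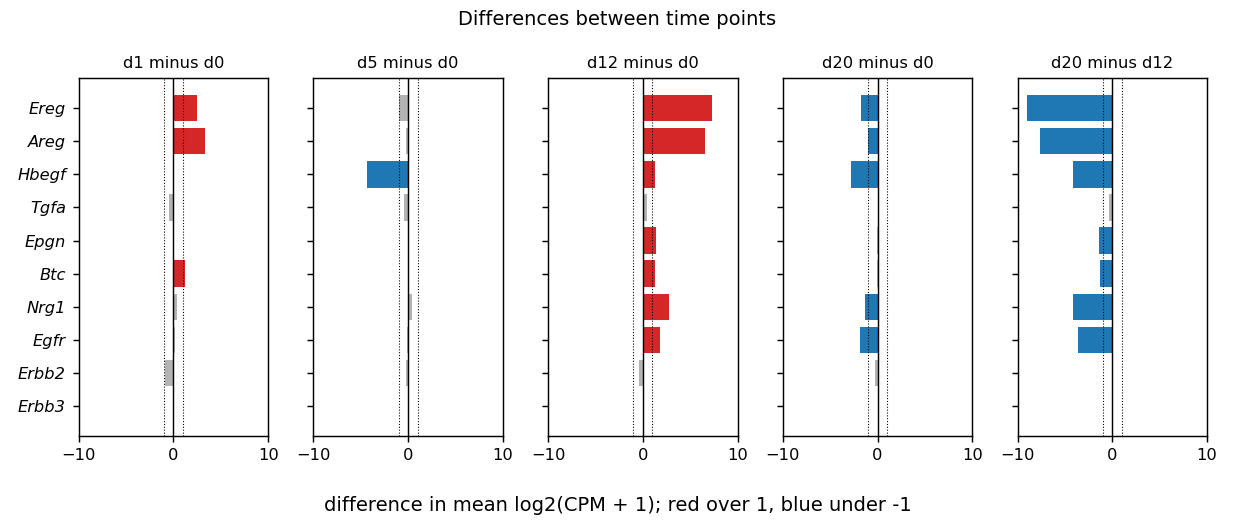
Difference in mean log2(CPM + 1) between time points for the 10 genes (bars), in the 5 comparisons, with dotted lines at -1 and 1. Ereg and Areg reach 7.26 and 6.61 in d12 minus d0 and -8.97 and -7.65 in d20 minus d12, and Hbegf is the only bar beyond the lines in d5 minus d0.

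Colony cells of day 12 fell into a pair of sets by their running number. In the 21 kept d12c cells numbered 1 to 24, *Ereg* had a mean of 454 CPM and was found in all cells, whereas in the 30 cells numbered above 48 the mean was 3.95 CPM and 3 cells held a UMI. *Areg* had means of 558 and 37.9 CPM, and 1 cell of 1027 CPM held most of the second value, which was 3.82 without it. *Nrg1* had means of 35.2 and 1.36 CPM, and *Egfr* had 11.8 CPM against no UMI in the 30 later cells. *Epgn* and *Btc* also had no UMI in the later cells. *Hbegf* differed less, at 108 and 42.0 CPM, and *Tgfa* had 5.78 and 3.49 CPM. The sum of 8 fibroblast markers had a median of 3135 CPM in the cells numbered 1 to 24 and 17.5 in those above 48, and the sum of 8 XEN markers had medians of 195 and 1050 CPM. Number range and cell state cannot be told apart for d12c.

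On day 12, *Ereg* and *Areg* thus had high means in the d12c set with fibroblast markers and were near 0 in most cells above 48, with XEN markers. In the set with fibroblast markers the medians were only 91.9 CPM for *Ereg* and 75.03 CPM for *Areg*, so that high cells made up much of the means. These medians lay not far above the common lowest level described below, so the set as a whole is not read as high. The link with fibroblast markers did not hold over the course. The fibroblast sum had its highest median at d8 (11297 CPM), where both ligands were near 0. Within d12 the number ranges were closer, and *Ereg* had means of 1401 CPM (1 to 48) and 859 CPM (above 48), *Areg* 1140 and 587 CPM, and *Hbegf* 250 and 249 CPM. *Btc* (6.74 and 18.9 CPM) and *Erbb2* (2.87 and 9.96) were higher in the later cells. At d4 the means of the ranges stood apart, with *Areg* at 3.15 and 33.1 CPM, *Ereg* at 2.87 and 11.7, *Egfr* at 7.73 and 27.6 and *Nrg1* at 9.73 and 1.49. A few high cells made up much of the d4 gap, since the medians of *Ereg* and *Areg* were 0 in both ranges and an *Ereg* UMI was found in 42.5% and 43.2% of cells. Gaps of like size were found at d6p for *Nrg1* (9.28 and 1.09 CPM) and *Hbegf* (0.824 and 6.71) and at d8 for *Nrg1* (5.75 and 0.446) and *Ereg* (2.26 and 0.270).

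Within the day 12 cells a lowest level was common to all. Of the 67 d12 cells and the 21 d12c cells numbered 1 to 24, 8 held at least 100 CPM of *Sox17*, an XEN transcription factor, and under 150 CPM of *Twist2*, a fibroblast transcription factor. This split was made after the values were seen. These 8 cells held *Twist2* at 92.5 to 127 CPM, *Ereg* at 28.0 to 66.0 CPM and *Areg* at 21.8 to 66.5 CPM, that is 7.67%, 3.99% and 4.36% of the mean of the other 80 cells. The sum of 4 epithelial markers, *Krt8* and *Krt18* among them, was likewise at least 35.2 CPM in each d12 cell, fibroblast-like ones included. A UMI of *Ereg* or *Areg* in every d12 cell is therefore not read as expression in every cell, and whether RNA or barcodes were shared between cells of a library was not tested. Above the highest of the 8 cells lay 75 of the other 80 cells (93.8%) for *Ereg* and 62 (77.5%) for *Areg*.

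*Tgfa* went the other way in these cells. It was found in 7 of the 8 cells with high *Sox17* and low *Twist2*, with a mean of 22.0 CPM and a highest cell of 74.2, and in 31 of the other 80 cells with a mean of 2.98 CPM. *Hbegf* was found in all 88 cells, with means of 126 and 225 CPM, and *Egfr* in 5 of 8 and 68 of 80 cells, with means of 20.4 and 35.3 CPM. *Epgn* was nearly absent from the 8 cells (0.239 CPM against 18.0). With 8 cells, these means rest on few values.

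**Figure D4:**
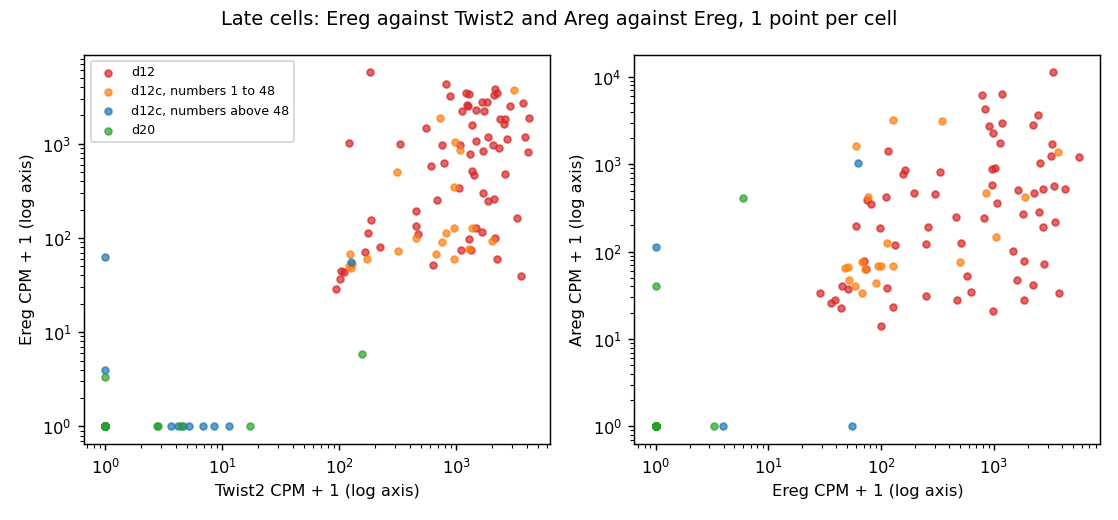
Each point is 1 kept cell of d12, d12c (by number range) or d20, with Ereg against Twist2 (left) and Areg against Ereg (right), in CPM + 1 on log axes. Day 12 cells and d12c cells numbered 1 to 48 start at about 28 CPM of Ereg and 92 CPM of Twist2, whereas nearly all d20 cells and d12c cells above 48 lie at 0 for Ereg.

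Across cells, *Ereg* and *Areg* varied together to a weak or moderate degree, and the other pairs of the chromosome 5 group did not at d12. Spearman's rho of *Ereg* and *Areg* was 0.18 over 72 d0 cells, 0.21 over 40 d1 cells, 0.54 over 83 d2 cells and 0.42 over 67 d12 cells. It was 0.89 over the 51 d12c cells, which span the sets of low and high cell number, and no rho was taken within either set. At d12 the other pairs of the chromosome 5 group lay between -0.20 (*Areg* and *Btc*) and 0.15 (*Ereg* and *Epgn*). *Epgn* and *Nrg1*, which is on another chromosome, had a rho of 0.54 at d12 and *Ereg* and *Tgfa* one of -0.42. *Ereg* had a rho of -0.38 with *Sox17*, 0.33 with *Twist2* and 0.04 with the depth of the cell, and *Tgfa* one of 0.41 with *Sox17*. These are descriptions over cells that share a library and culture. At d12 *Egfr* stood at a rho between -0.17 and 0.10 with each of the 7 ligands. It was found in 60 of all 67 cells, in 26 of the 28 cells with *Tgfa*, in 31 of the 33 with *Epgn* and in 24 of the 26 with *Btc*, so that its share differed little between cells with and without a UMI of these ligands. At d20, 1 cell held *Hbegf* with *Egfr* and none held *Egfr* with any other ligand.

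The genes with the most similar course were ranked by Pearson's r of mean log2(CPM + 1) over the 12 groups, among 9165 genes. For *Ereg* these were *Sema7a* (0.990), *Areg* (0.980) and *LOC106557447* (0.977), and for *Areg* *Ptpn22* (0.982), *Ereg* and *Sh2d5* (0.979). *Epgn* was closest to *Gm13889* (0.987), *Crhbp* (0.985) and *Cxcl2* (0.985), a chemokine gene on the same stretch of chromosome 5. *Hbegf* was closest to *Odc1* (0.952), which encodes ornithine decarboxylase, *Tmcc3* and *Eif1a*, and *Btc* to *Oaf* (0.948), *Apold1* and *Fdx1*. *Nrg1* was closest to *Gramd4* (0.952), *Sipa1l2* and *Anxa11*, and *Tgfa* to *Sdcbp2* (0.930), *Myl7* and *Plac8*. *Egfr* was closest to *Ppp1r18* (0.952), *Inhba* (0.948), the activin subunit, and *S1pr2* (0.946), and the genes most like *Erbb2* included *Rxrb* and *Mios*. Without d12, the r of these pairs over 11 groups was 0.961 for *Ereg* and *Sema7a*, 0.969 for *Ereg* and *Areg*, 0.930 for *Hbegf* and *Odc1* and 0.9599 for *Egfr* and *Ppp1r18*, and it was lower for *Epgn* and *Crhbp* (0.857) and *Nrg1* and *Gramd4* (0.874).

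The coding genes within 250 kb of the chromosome 5 group were compared between d12 and d8. The share of all genes that differed between these 2 groups was not taken. *Ereg* was higher by 8.63, *Areg* by 7.69, *Epgn* by 1.38 and *Btc* by 1.20. Of the 6 neighbours, *Cxcl2* was higher by 6.44, *Cxcl1* by 3.62, *Mthfd2l* by 1.22 and *Cxcl3* by 1.15. *Parm1* differed by 0.65 and *Cxcl15* by 0.14. *Cxcl1* and *Cxcl2* encode chemokines that draw neutrophils. At d1 minus d0, *Cxcl1* was higher by 1.71 and *Mthfd2l* by 1.37, whereas *Cxcl2* differed by -0.40.

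Genes around the receptors were taken from lists by role. Of 6 genes for ligand release, 5 passed the minimum in each comparison, and none differed by over 1 in d1 minus d0 or d12 minus d0. Over all genes, 19.3% and 19.8% were higher and 4.57% and 16.3% lower in these. In d5 minus d0 *Adam17* (1.23), the main protease for several EGF ligands, and *Adam10* (1.41) were higher and *Adam9* (-1.23) lower. Of all genes, 29.1% were higher and 6.38% lower at d5. At d20 against d0, 3 of 5 were lower (25.1% of all genes), *Adam9* by -3.86, *Rhbdf1* by -2.36 and *Adam12*. Of 19 signal transducers, 18 passed the minimum in the d1 and d5 comparisons and all 19 at d12. Of these, 6 were higher at d1, 7 at d5 and 5 at d12 than at d0, beside 19.3%, 29.1% and 19.8% of all genes, each time with *Pik3r1*, a regulatory subunit of PI3 kinase, as the largest (2.62, 3.53 and 1.77). The ERK gene *Mapk3* was lower at d12 (-1.51). None was higher and 7 of 17 were lower at d20 than at d0 (25.1% of all genes), *Pik3ca* (-1.84) among them, and 10 of 19 were lower at d20 than at d12 (30.9% of all genes), led by the adaptor gene *Shc1* (-2.32).

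Of 14 feedback inhibitors, 12 passed the minimum in d12 minus d0, and 7 were higher and 2 lower (19.8% and 16.3% of all genes), with *Errfi1*, whose product binds and inhibits the EGF receptor, higher by 5.38 and *Spry4* by 3.58. *Lrig3* (-2.01) and *Spry1* (-2.34) were the lower ones. At d1 minus d0, 4 of 13 were higher (*Spred1* by 2.81), beside 19.3% of all genes, and *Spry1* was lower (-2.37). At d5 minus d0, 4 of 11 were higher (*Cblb*, a ubiquitin ligase gene, by 3.47), near the 29.1% of all genes, and 2 were lower. At d20 none was higher, 8 of 10 were lower than at d0 (*Spry2* by -2.98), beside 25.1% of all genes, and 9 of 11 lower than at d12, beside 30.9% (*Errfi1* by -9.23 and *Spry4* by -5.49).

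Of 11 genes known to respond to EGF receptor signalling, 7 of the 9 that passed the minimum were higher at d1 and 7 of 10 at d12 than at d0, beside 19.3% and 19.8% of all genes, and none was lower. *Fos* (3.48) and *Ier3* (2.64) led at d1 and *Phlda1* (5.35) and *Ier3* (4.36) at d12. At d5, 5 of 8 were higher (*Etv5* by 2.90), beside 29.1% of all genes, and 2 lower, with *Plaur*, the urokinase receptor gene, at -4.46. At d20, 5 of 8 were lower than at d0 (*Plaur* by -5.68 and *Phlda1* by -2.32), beside 25.1% of all genes, and 9 of 9 lower than at d12 (*Phlda1* by -7.67), beside 30.9%. The list medians, with genes below the minimum included, were 0.67 for feedback inhibitors and 1.45 for responsive genes in d1 minus d0. In d12 minus d0 they were 0.87 and 2.24. The medians of all genes that passed the minimum were 0.43 and -0.01. The responsive genes did not follow the ligands in every group. Their CPM sum had a median of 953 at d1, 1660 at d8c and 2886 at d12. The sum of the 7 ligands had medians of 195, 1.45 and 1578 CPM in these groups. Many genes of both lists also respond to other signals, such as the growth factor and serum in the medium, and their relation to the ligands was not tested.

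**Figure D5:**
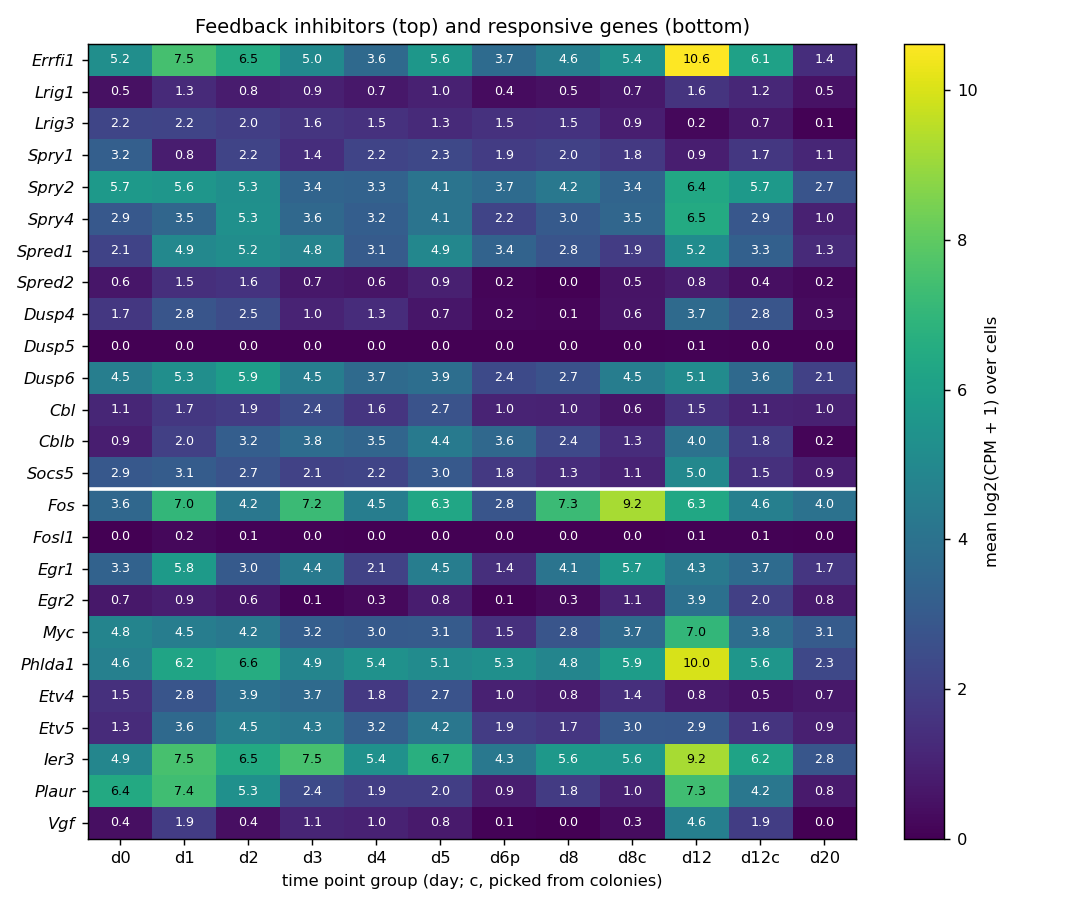
Mean log2(CPM + 1) over kept cells for 14 feedback inhibitors (above the white line) and 11 responsive genes (below) in the 12 time point groups. Errfi1, Phlda1 and Ier3 have their highest means at d12 (10.62, 9.97 and 9.22), and all 3 are lowest at d20.

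Markers of other cell types were read beside these levels. Of 3 keratinocyte markers, the cells in which several of these ligands are well known, *Krt5* and *Trp63* had a mean log2(CPM + 1) of 0 and 0.09 at d12, and *Krt14* had 1.75 and was higher than at d0 by 1.48. The keratinocyte sum had a median of 2.64 CPM at d12. Of 4 macrophage markers, *Ptprc* and *Adgre1* were at 0 at d12 and *Csf1r* was higher by 1.16 than at d0, and of 3 endothelial markers *Pecam1* was at 0 and *Kdr* was higher by 2.29. Of 4 epithelial markers all were higher at d12 than at d0, *Krt8* by 5.29, *Krt18* by 3.56, *Epcam* by 1.95 and *Cdh1* by 1.20. Their sum had a median of 69.4 CPM at d12 and a lowest cell of 35.2 CPM. It is thus near the common lowest level given above and is not read as expression in every cell. Of 8 XEN markers 4 passed the minimum, and *Sox17* (3.16), *Gata6* (1.35) and *Gata4* (1.20) were higher and *Dab2* (-1.97) was lower. The sum of 8 fibroblast markers had a median of 6860 CPM at d12 against 3162 at d0. Of these 8, 5 were higher, with *Twist2* by 3.12 and *Col3a1* by 2.49, and *Osr1* (-3.70) and *Fbn1* (-2.30) were lower. Over all genes that passed the minimum in d12 minus d0, 19.8% were higher and 16.3% lower. The part of these markers in the ligand levels was not tested.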

How the data were processed

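Single-cell RNA-seq of the C6FAE course was used. As deposited, the counts were made by the authors, who assigned trimmed reads to cells by barcode, used the mm9 transcriptome for alignment and collapsed reads of 1 UMI. The aligner is not given in the sources used here. The table held 23197 genes, after 4 entries under repeated date-like names were left out, 92 spike-in RNAs and 808 cells. Members and gene lists were chosen with earlier results of these data known.

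Kept cells had at least 4000 detected genes. CPM were computed without spike-in RNAs, log2 values with a pseudocount of 1, and differences and shares of cells with a UMI also after each cell had been thinned to 50000 UMIs, leaving out 23 shallower cells. A difference was counted when it exceeded 1, among genes with a mean log2 of at least 1 in either group. Poisson and Clopper-Pearson intervals (95%) and the limit of 3 counts for a value of 0 cover counting error only. Cells are not replicates, so no test was made. The named genes were the members, the 3 genes most like each member that reached 10 CPM, the 2 genes of each list with the largest difference per comparison, all genes of lists with up to 5, and *Sox17* and *Twist2*. Some genes named by this rule are not reported here. Other genes of the lists and of the chromosome 5 neighbourhood were named after their values were seen.

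Alternatives covered the filter on cells, pseudocount, way of averaging, thinning, the highest cell, and scaling by TMM (edgeR 4.0.16), DESeq2 1.42.0 or spike-in RNAs. A split by cell number and a limit of 100 CPM for ligands per cell were added after seeing the data. The difference of means was also run on simulated counts, with known changes only in genes of at least 20 CPM. These counts held no common lowest level, batches or mixed cell states, so they cannot show how the rule does under those. Python 3.11.15, numpy 2.4.6, pandas 2.3.3, scipy 1.17.1 and R 4.3.3 were used.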

Additional observations from a re-analysis of the deposited data

How the results depend on the processing

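No paired analysis was possible because the cell names carry no batch or replicate number. The number of members with their highest mean at d12 was 7 with no filter, 2000 or 6000 detected genes. Member counts under the alternatives below have no share of all genes beside them. For d1 minus d0, lower members were 2 when the log2 was taken of the mean or of the summed CPM + 1, and 1 (*Erbb2*) with cells numbered 1 to 48. For d5 minus d0, lower members were 2 with at least 6000 genes, per spike-in UMI and with cells numbered 1 to 48, and under both ways of averaging 3 were lower and 1 higher. For d12 minus d0, higher members were 3 with a pseudocount of 10 and 3 per spike-in UMI, and *Hbegf* reversed to -0.56 per spike-in UMI. For d20 minus d0, lower members were 1 with a pseudocount of 10 and 3 after thinning, higher members were 2 under both ways of averaging, and *Areg* reversed to 1.33 (mean CPM) and 2.23 (summed CPM). For d20 minus d12, higher members were 2 (mean CPM) and 1 (summed CPM). The cause was not tested, apart from the single d20 cells that hold most of *Areg* and *Tgfa*. Of 630 single-member values under all alternatives, 522 stayed within the 95% range that the spread between cells gives the value, 105 moved by more and 3 reversed. The 522 include all values of *Erbb3*, which had no UMI at d0, d1, d5, d12 or d20 and could not move. TMM shifted the median of all genes by 0.13 in d12 minus d0 and by -0.25 in d20 minus d12. Batch and time cannot be told apart, and the low depth at d20 limits what levels near 0 can show.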
